A study of Mus musculus with 18 samples.

Results

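The subunits of skeletal muscle troponin were followed gene by gene and exon bin by exon bin through RNA-seq data of a mouse model of myotonic dystrophy type 1 (DM1). The members were the 8 genes Tnnt1, Tnnt2, Tnnt3, Tnni1, Tnni2, Tnni3, Tnnc1 and Tnnc2, chosen by name, though with earlier results of these data known. Of these, 7 had counts, in 194 of the 391858 exon bins and among 46725 genes in all, and Tnni3, the cardiac troponin I, was not analysed here. All mice were of the FVB strain and 20 weeks old. WT mice carried no transgene. HSA-LR mice expressed the human skeletal actin gene with expanded CTG repeats, driven by the actin promoter and so restricted to skeletal muscle, and were labelled untreated. Pip6a-PMO mice were HSA-LR mice given an intravenous CAG7 morpholino antisense oligonucleotide (PMO) conjugated to the cell-penetrating peptide Pip6a. The labels also name a saline injection without saying which mice received it, and they do not name the dose. They give the same injection volume for every library, those of WT and untreated HSA-LR mice included. Each group held 3 mice, and the gastrocnemius and the quadriceps of each mouse were sequenced, which gave 6 groups and 18 libraries.

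Troponin sits on the thin filament and makes contraction depend on calcium. Troponin C binds calcium, troponin I holds back the actomyosin interaction, and troponin T ties the complex to tropomyosin. Fast fibers use Tnnt3, Tnni2 and Tnnc2, slow fibers use Tnnt1, Tnni1 and Tnnc1, of which Tnnc1 also serves the heart, and Tnnt2 is the cardiac troponin T, expressed in immature skeletal muscle too. Transcripts of Tnnt3 differ by a run of small exons near the 5′ end, among them a fetal exon that is kept in fetal muscle and skipped in adult muscle, and by a mutually exclusive pair near the 3′ end. MBNL proteins, which expanded CUG repeats sequester in DM1, are known to promote adult patterns of splicing.

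The values were counts per exon bin, a stretch of exon between annotated exon ends. A read pair that overlapped several bins was taken to count in each, since bins of a few bases held counts. The counting rule itself was not given. A share is the percentage of a gene's summed bin counts in a bin, and CPM is a count scaled to the total of its library. Libraries held 98916844 to 143135976 counts. The labels put a female in WT mouse 2 and males elsewhere, whereas summed CPM of 4 Y-linked genes was 1.15 and 1.43 in the muscles of WT mouse 3 and at least 119 in the other 16 libraries, 154 and 181 in WT mouse 2, so that both mice went against their labels. The median log2 ratio of 5′ to 3′ counts was -1.64 in the gastrocnemius of Pip6a-PMO mouse 3 and -1.30 to -1.15 elsewhere. Fast fiber genes were abundant in all libraries, with a summed CPM of 144699 to 192491 over 12 genes. Calls of genes and bins needed an adjusted P under 0.1 (Benjamini-Hochberg, over all genes or all bins), from edgeR's quasi-likelihood test for genes and edgeR's diffSpliceDGE for a bin against the rest of its gene.

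The fetal exon of Tnnt3 lay in the coding sequence at chr7:142507750-142507788 on the plus strand (GRCm38) and was split into bins 018 and 019. It was 39 bases long, a multiple of 3, and was whole in 9 of the 27 annotated Tnnt3 transcripts. The exon is shown in its transcript because it carries the largest change in the gene, with its own bases in capitals and the neighbouring exons in lower case, next to the junction of a transcript that skips it.
Tnnt3 bin 018, chr7:142507750-142507769: gtccaagaagATGCTGTCGCCGAGGAGGAG
Tnnt3 bin 019, chr7:142507770-142507788: CGGGAGGAGGACGAGGAAGaggagaaacca
junction without the fetal exon: gtccaagaagaggagaaacca

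In front of the fetal exon lay 4 short alternative coding exons that are shown because they moved in different directions or by different amounts, again with the bin in capitals. Their lengths were 18, 15, 12 and 15 bases in the order given, all multiples of 3.
Tnnt3 bin 010, chr7:142502740-142502757: ttgaggAACAATACGAAGAGGAAGaggagg
Tnnt3 bin 013, chr7:142504250-142504264: aggaagAAGTCCAGGAGGAAGcccccg
Tnnt3 bin 015, chr7:142505288-142505299: aggaagCCCCCGAACCAGaggaga
Tnnt3 bin 017, chr7:142505516-142505530: aggaagAGGAAGTCCAAGAAGatgctg

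The mutually exclusive exons near the 3′ end were bins 031 and 033, of 41 bases each, which matched at 18 of the 41 positions (43.9%). Their first 30 bases show how far the alternatives differ.
Tnnt3 bin 031, chr7:142513665-142513694: ATCATGACTGTCCGGGCCAGAGTGGAGATG
Tnnt3 bin 033, chr7:142514326-142514355: ATCACCACCCTCAGGAGCCGCATTGACCAA

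Across the troponin genes, called changes in exon usage between HSA-LR and WT mice lay almost entirely in Tnnt3, the member with the most counts. In the gastrocnemius, 11 of 156 tested troponin bins were called, all higher in HSA-LR mice, against 0.819% of all bins tested (0.591% higher). Of these, 10 were bins of Tnnt3 and 1 was a bin of Tnnc2. In the quadriceps, 10 of 141 tested troponin bins were called, 8 higher and 2 lower, against 0.284% of all bins (0.165% higher and 0.119% lower), and 9 of the 10 were in Tnnt3. No bin of Tnnc1, Tnni1, Tnni2, Tnnt1 or Tnnt2 was called between HSA-LR and WT mice in either muscle. Shares of the 2 groups did not overlap for 45 of 156 troponin bins in the gastrocnemius (19.8% of all bins) and for 28 of 141 in the quadriceps (12.5%). Among the 13 alternative coding bins of Tnnt3, those held by some but not all annotated protein-coding transcripts, 7 were called in the gastrocnemius and 8 in the quadriceps.

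The fetal exon was close to absent in adult WT muscle and abundant in HSA-LR muscle. In the gastrocnemius, bin 018 took 0.0212%, 0.0434% and 0.0420% of Tnnt3 counts in the WT mice, 2.71%, 2.78% and 2.76% in the HSA-LR mice, and 0.0925%, 0.0589% and 0.0222% in the Pip6a-PMO mice. In the quadriceps, its share was 0.0268%, 0.0347% and 0.0399% in WT mice, 1.66%, 2.71% and 2.06% in HSA-LR mice, and 0.143%, 0.0851% and 0.0709% in Pip6a-PMO mice. Every HSA-LR library lay above every other library in its muscle, Pip6a-PMO and WT mice overlapped in the gastrocnemius, and in the quadriceps the Pip6a-PMO mice lay above all WT mice. These shares rested on 99434 to 108322 counts of bin 018 in the HSA-LR gastrocnemius and on 1152 to 2482 in the WT gastrocnemius, so that counting error was small beside the spread between mice.

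The rise of bin 018 in HSA-LR against WT mice was 6.31 (SE 0.49, adjusted P = 8.1e-25) on the log2 scale of usage relative to the gene in the gastrocnemius and 5.98 (SE 0.29, adjusted P = 2.4e-50) in the quadriceps. The second bin of the exon behaved alike. Bin 019 had a mean share of 0.0252% ± 0.0032 (SD, n = 3) in WT, 2.64% ± 0.0571 in HSA-LR and 0.0428% ± 0.0235 in Pip6a-PMO gastrocnemius, and of 0.0222% ± 0.0028, 2.16% ± 0.459 and 0.0706% ± 0.0312 in the quadriceps in the same order. It rose by 6.73 (SE 0.50, adjusted P = 9.6e-27) in the gastrocnemius and by 6.60 (SE 0.30, adjusted P = 8.4e-55) in the quadriceps. Bins 018 and 019 belong to the same exon and can share read pairs, and so are not independent of each other. The difference in response between the muscles was -0.33 for bin 018 and -0.13 for bin 019 and was not called (adjusted P = 1.0 for both in diffSpliceDGE).

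In treated mice the exon fell in both muscles. The change from HSA-LR to Pip6a-PMO mice in bin 018 was -5.75 (SE 0.48, adjusted P = 6.1e-22) in the gastrocnemius and -4.43 (SE 0.27, adjusted P = 1.4e-36) in the quadriceps, and in bin 019 it was -6.10 (adjusted P = 1.7e-23) and -4.95 (adjusted P = 3.5e-41). Comparisons of Pip6a-PMO mice and of WT mice with HSA-LR mice share the HSA-LR libraries. Against WT mice, the exon was not called in the treated gastrocnemius, with log2 changes of 0.56 for bin 018 and 0.62 for bin 019 (adjusted P = 1.0 for both). In the treated quadriceps it remained above WT mice, by 1.55 (SE 0.24, adjusted P = 7.4e-06) in bin 018 and 1.65 (SE 0.24, adjusted P = 9.5e-07) in bin 019. With the library's 5′ to 3′ ratio as a covariate these last calls were lost (1.09, adjusted P = 1.0, and 1.31, adjusted P = 0.725), whereas the rise in HSA-LR mice and the fall with treatment were called in all 18 settings tried. WT mice 2 and 3, whose Y-linked counts went against their labels, were left out in turn, and the rise of bin 018 was then 6.5 and 6.43 in the gastrocnemius and 6.0 and 6.11 in the quadriceps.

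**Figure D1:**
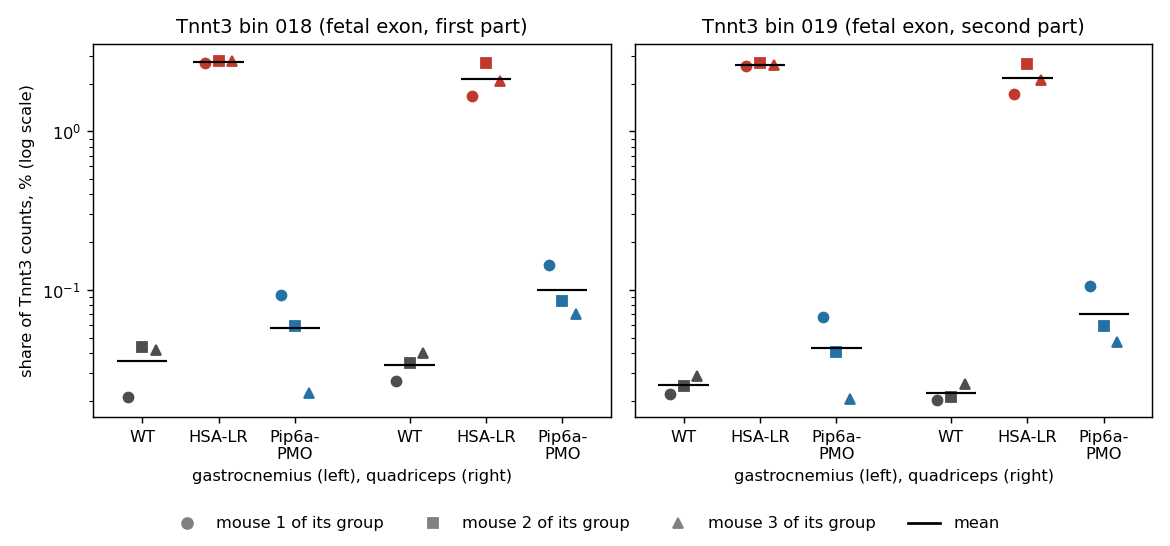
Share of Tnnt3 counts in bins 018 and 019 of the fetal exon in percent, on a log scale, for the 18 libraries by group and muscle; points are mice and lines are group means. HSA-LR libraries lie between 1.66% and 2.78% in bin 018, and every other library lies at or below 0.143%.

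The fetal exon was also set against the nearest constitutive coding bin downstream (bin 023, 46 bases). Per 100 counts of bin 023, bin 018 had 0.397, 0.792 and 0.793 counts in WT, 58.5, 60.6 and 62.0 in HSA-LR and 1.78, 1.09 and 0.422 in Pip6a-PMO gastrocnemius. In the quadriceps it had 0.514, 0.631 and 0.761 in WT, 38.9, 60.7 and 46.4 in HSA-LR and 2.79, 1.61 and 1.31 in Pip6a-PMO mice. The HSA-LR quadriceps thus spread over a wider range than the HSA-LR gastrocnemius, and the groups were ordered as by share of the gene. These ratios compare bins of unequal length, in which a longer bin collects more read pairs, and are not the percentage of transcripts that hold the exon.

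Bin 010, an 18-base coding exon upstream of the fetal exon, moved the same way by a smaller amount. It took 0.303%, 0.700% and 0.705% of Tnnt3 counts in WT, 3.11%, 2.75% and 2.90% in HSA-LR and 1.12%, 0.694% and 0.204% in Pip6a-PMO gastrocnemius. In the quadriceps the shares were 0.493%, 0.467% and 0.829% in WT, 1.82%, 2.37% and 2.26% in HSA-LR and 1.24%, 1.16% and 0.870% in Pip6a-PMO mice. HSA-LR mice lay above both other groups in each muscle, and treated mice overlapped with WT mice in the gastrocnemius but lay above them in the quadriceps. The rise in HSA-LR mice was 2.40 (SE 0.41, adjusted P = 1.6e-05) in the gastrocnemius and 1.86 (SE 0.24, adjusted P = 1.0e-09) in the quadriceps. It fell with treatment by 2.32 on the log2 scale in the gastrocnemius (adjusted P = 6.9e-05) and by 0.99 in the quadriceps (SE 0.23, adjusted P = 0.028). The quadriceps call with treatment was lost without HSA-LR mouse 2 (adjusted P = 0.162) or without Pip6a-PMO mouse 1, 2 or 3 (adjusted P = 0.128, 0.129 and 0.756), and the gastrocnemius call was lost with the 5′ to 3′ covariate (-1.53, adjusted P = 0.457).

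Bin 017, the 15-base exon directly before the fetal exon, was the third coding exon to rise. Its share was 0.336%, 0.748% and 0.871% in WT, 2.28%, 2.12% and 2.07% in HSA-LR and 0.911%, 0.616% and 0.412% in Pip6a-PMO gastrocnemius, and 0.571%, 0.565% and 0.834%, then 1.88%, 1.73% and 2.33%, then 1.19%, 1.03% and 1.06% in the quadriceps. HSA-LR mice did not overlap with the others in either muscle. The rise was 1.78 (SE 0.40, adjusted P = 0.0051) in the gastrocnemius and 1.61 (SE 0.24, adjusted P = 2.7e-07) in the quadriceps. With treatment bin 017 fell by 1.85 in the gastrocnemius (adjusted P = 0.0058), and its change of -0.86 in the quadriceps was not called (adjusted P = 0.141). In the gastrocnemius the first of these calls was lost without WT mouse 1 (1.42, adjusted P = 0.262) and the second without Pip6a-PMO mouse 3 (-1.53, adjusted P = 0.165).

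Bins 013 and 015, which lie between bins 010 and 017, did not rise. Bin 015 took 3.99%, 3.94% and 3.69% of the counts in WT, 2.48%, 2.53% and 2.59% in HSA-LR and 3.07%, 3.64% and 3.43% in Pip6a-PMO gastrocnemius, and 3.77%, 4.04% and 3.68% in WT, 2.03%, 2.73% and 1.60% in HSA-LR and 3.38%, 3.33% and 3.84% in Pip6a-PMO quadriceps. HSA-LR mice were thus below both other groups in each muscle. The change relative to the gene was -0.87 (SE 0.23, adjusted P = 0.088) in the quadriceps and -0.62 (adjusted P = 1.0, not called) in the gastrocnemius. The quadriceps call was lost in 11 of 18 settings, among them each WT and each Pip6a-PMO mouse left out and HSA-LR mouse 1 or 3 left out (-0.90 to -0.69, adjusted P = 0.103 to 1.0).

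The shares of bin 013 ran from 3.47% to 3.90% over the WT libraries, from 1.88% to 3.05% over the HSA-LR libraries and from 3.10% to 3.60% over the Pip6a-PMO libraries, and bin 013 was not called in any comparison. Bin 008, a constitutive bin of the same region, was low in the HSA-LR quadriceps too. It stood at 3.03%, 3.13% and 3.01% in WT and 2.10%, 2.41% and 1.85% in HSA-LR quadriceps, and was not called. With the 5′ to 3′ ratio as a covariate, bin 015 was still called in the quadriceps (-0.92, adjusted P = 0.0892).

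**Figure D2:**
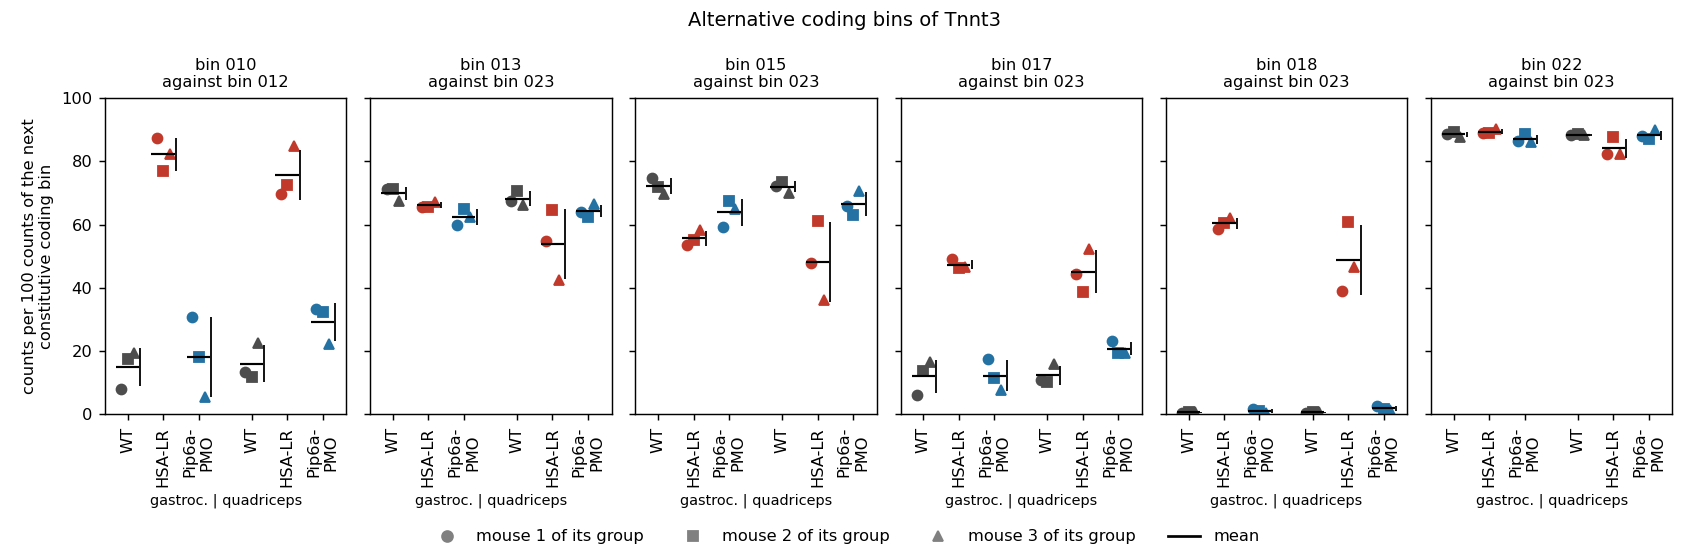
Counts of 6 alternative coding bins of Tnnt3 per 100 counts of the next constitutive coding bin, for each mouse by group and muscle; horizontal lines are means and the vertical lines beside them run 1 SD either way (n = 3). Bins 010, 017 and 018 are high in HSA-LR mice, bins 013 and 015 are not, and bin 022 stays between 82.3 and 90.2 in all 18 libraries.

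The other called bins of Tnnt3 around the fetal exon took small shares of the gene. In simulated data, most false calls of bins lay in genes that held a changed bin (255 false calls, 49 of them in other genes). The simulation drew bins independently at a single dispersion, with changes of 1 or 2 on the log2 scale. It held no change as large as that of the fetal exon and no read pairs shared between bins. Whether these smaller calls are changes of their own was not tested. Bin 014 (8 bases, coding) rose by 1.41 (adjusted P = 0.015) in the HSA-LR gastrocnemius and 1.21 (adjusted P = 3.8e-04) in the quadriceps, from shares of 0.0162% to 0.0250% in WT libraries to 0.0451% to 0.0524% in HSA-LR libraries. Bin 016 covers 192 noncoding bases between bins 015 and 017 and rose by 2.10 and 1.96, from 0.0127% to 0.0233% to 0.0732% to 0.0843%. Bins 020 and 021, coding in some annotated transcripts and lying just behind the fetal exon, rose by 1.61 and 1.69 in the gastrocnemius and by 1.61 and 1.62 in the quadriceps, and no HSA-LR library exceeded 0.0434% in either bin. Bin 016 fell with treatment by 1.82 and 0.98, bin 020 by 1.42 and 0.88 and bin 021 by 1.44 and 0.88. The quadriceps falls of bins 020 and 021 (adjusted P = 0.0851 for both) were lost in 11 of 18 settings, including any 1 of the HSA-LR mice, the Pip6a-PMO mice or WT mouse 1 left out (-0.95 to -0.77, adjusted P = 0.117 to 0.874), and the quadriceps fall of bin 016 was lost without any 1 of the Pip6a-PMO mice (adjusted P = 0.101 to 0.768).

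Several small calls were lost when 1 mouse was left out. Bin 014 in the gastrocnemius was lost without WT mouse 1 (1.35, adjusted P = 0.176). Bin 011, 25 noncoding bases, rose by 1.22 in the HSA-LR gastrocnemius (adjusted P = 0.076), a call lost in 9 of 17 settings, among them without any 1 of the WT mice, HSA-LR mouse 2 or 3 or Pip6a-PMO mouse 2 (1.08 to 1.25, adjusted P = 0.101 to 0.355). Bin 016 stood above WT in the treated quadriceps by 0.98 (adjusted P = 0.096), a call lost in 12 of 17 settings, among them without WT mouse 1 or 3, HSA-LR mouse 1 or Pip6a-PMO mouse 1 or 2 (0.75 to 1.10, adjusted P = 0.108 to 1.0). In the gastrocnemius, the falls of bins 020 and 021 with treatment were lost without HSA-LR mouse 3 (adjusted P = 0.174 and 0.119) or Pip6a-PMO mouse 3 (adjusted P = 0.299 and 0.261).

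Bin 006, 3 untranslated bases near the 5′ end, depended on mouse 2 of its groups. Its share was 0.0866% in HSA-LR mouse 2 and 0.0315% in WT mouse 2 of the gastrocnemius, and at most 0.0106% in the other 16 libraries. It was called higher in the HSA-LR gastrocnemius (1.30, adjusted P = 0.026) and lower with treatment (-2.32), yet without HSA-LR mouse 2 the changes were -1.07 (adjusted P = 0.420) and 0.05. The first was also lost without WT mouse 1 (0.84, adjusted P = 1.0) or WT mouse 3 (0.92, adjusted P = 0.884), and with the replicate number as a block the pair of values was 0.99 (adjusted P = 0.360) and -0.77 (adjusted P = 1.0). The lower value in WT quadriceps than in WT gastrocnemius (-2.12) was -0.10 (adjusted P = 1.0) without WT mouse 2. In the treated quadriceps it was above WT by 1.40 (adjusted P = 4.3e-05), which was lost with the 5′ to 3′ covariate (0.80, adjusted P = 1.0).

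**Figure D3:**
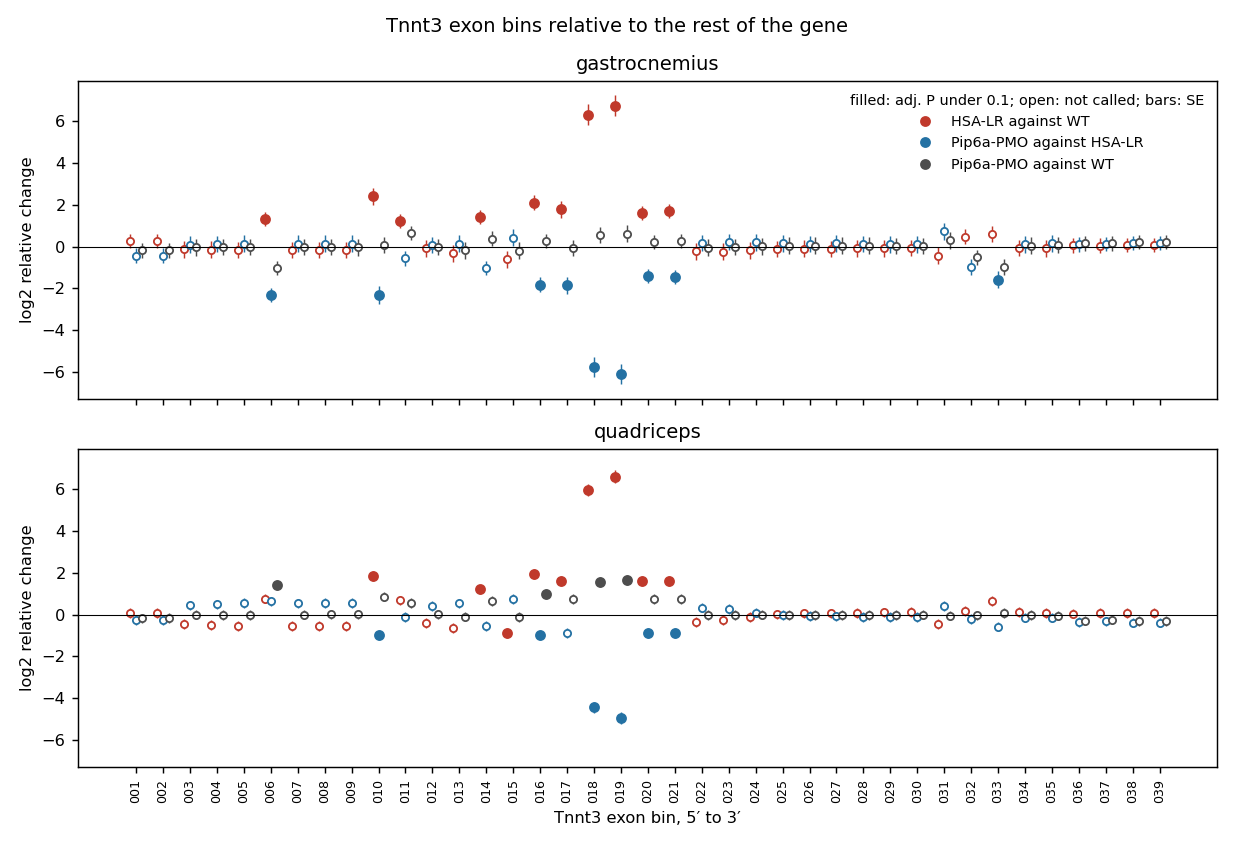
Log2 change of each of the 39 Tnnt3 bins relative to the rest of the gene, from 5′ to 3′, in the gastrocnemius (top) and quadriceps (bottom); bars are SE, filled points have an adjusted P under 0.1 and open points were not called. Bins 018 and 019 stand near 6 in HSA-LR against WT mice, and most bins behind bin 021 lie close to 0.

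Usage of the 3′ exon pair varied between mice of a group. Bin 033 made up 16.0%, 23.1% and 49.8% of bins 031 and 033 together in WT, 51.1%, 38.9% and 45.9% in HSA-LR and 21.3%, 15.4% and 9.38% in Pip6a-PMO gastrocnemius. In the quadriceps it made up 39.1%, 31.4% and 64.2% in WT, 46.5%, 60.1% and 82.2% in HSA-LR and 56.5%, 41.1% and 42.8% in Pip6a-PMO mice. WT mouse 3 had the highest value of its group in both muscles. The treated gastrocnemius (mean 15.4%) lay below the HSA-LR gastrocnemius (mean 45.3%) without overlap, at the smallest P that 3 mice against 3 allow (exact permutation test, two-sided, P = 0.1), and in all other comparisons within a muscle the groups overlapped (P = 0.2 to 0.8, exact permutation tests).

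In diffSpliceDGE, bin 033 fell with treatment in the gastrocnemius by 1.59 (SE 0.40, adjusted P = 0.049), and bin 031 was not called (0.73, adjusted P = 1.0). The call was lost in 6 of 18 settings, among them without HSA-LR mouse 1 or 3 (adjusted P = 0.242 and 0.269) and without Pip6a-PMO mouse 2 or 3 (adjusted P = 0.221 and 0.608). Between HSA-LR and WT mice bin 033 was not called, with 0.61 in the gastrocnemius (adjusted P = 1.0) and 0.66 in the quadriceps (adjusted P = 0.843).

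**Figure D4:**
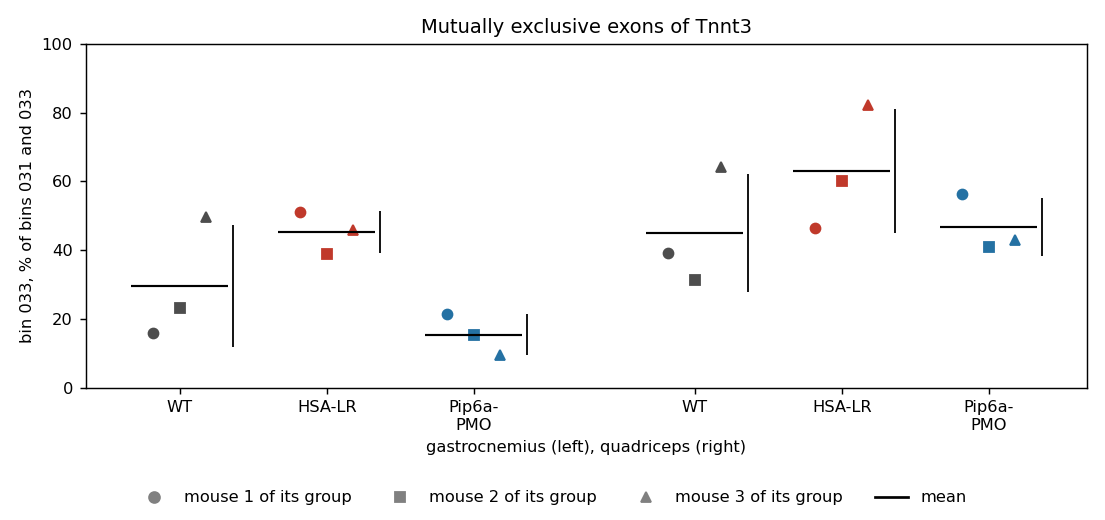
Bin 033 as a percentage of the summed counts of bins 031 and 033 of Tnnt3, for each mouse by group and muscle; horizontal lines are means and vertical lines run 1 SD either way (n = 3). The Pip6a-PMO gastrocnemius spans 9.38% to 21.3%, below the HSA-LR gastrocnemius at 38.9% to 51.1%.

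Over all troponin bins, treatment called 10 of 156 in the gastrocnemius (1 higher and 9 lower, against 0.309% of all bins, 0.195% lower) and 6 of 141 in the quadriceps (all lower, against 0.168%, 0.0897% lower). The 9 lower bins in the gastrocnemius and all 6 in the quadriceps belonged to Tnnt3. Against WT mice, 0 of 156 bins were called in the treated gastrocnemius (0.0654% of all bins), where limma voom with diffSplice also called 0, and 4 of 141 in the treated quadriceps (0.0353%), all 4 in Tnnt3 and higher (0.0243%). Between the muscles of WT mice 2 of 156 were called (0.0432%), bin 006 of Tnnt3 and bin 007 of Tnnc2, and 32 did not overlap (9.48%), and the response of 1 differed between the muscles (0.0166%). Shares did not overlap between treated and HSA-LR mice for 46 troponin bins in the gastrocnemius (16.5% of all bins) and for 47 in the quadriceps (13.9%), and between treated and WT mice for 11 (9.01%) and 20 (10.9%).

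No alternative coding bin of the other troponin T genes was called. For the slow Tnnt1 (chr7:4504570-4516382, minus strand), 5 of 7 alternative coding bins passed the filter on low counts in the gastrocnemius and 4 in the quadriceps. Between HSA-LR and WT mice their log2 changes ran from -0.09 to 0.00 in the gastrocnemius and from -0.21 to -0.13 in the quadriceps. All bins of Tnnt1 together held 452 to 1741 counts in the HSA-LR quadriceps, against 2523537 to 3170794 for Tnnt3. Changes in Tnnt1 thus had far fewer counts behind them. For the cardiac Tnnt2 (chr1:135836354-135852260, plus strand), 4 of 13 passed in the gastrocnemius and 0 in the quadriceps, and the 4 differed by 0.21 to 0.45 with no call. At the counts of Tnnt2 in these muscles a change in its alternative exons was not detectable in the quadriceps.

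Outside Tnnt3, bins of 2 other troponin genes were called. In Tnnc2, fast troponin C, bin 007 covers 100 untranslated or noncoding bases at the 5′ end (chr2:164779868-164779967, minus strand). It held 13, 11 and 17 counts in WT, 26, 30 and 27 in HSA-LR and 24, 15 and 25 in Pip6a-PMO gastrocnemius, and 21, 337 and 379, then 19, 9 and 45, then 3, 128 and 10 in the quadriceps. It was higher in the HSA-LR gastrocnemius by 1.55 (SE 0.36, adjusted P = 0.018) and lower in the HSA-LR quadriceps by 2.86 on the log2 scale (SE 0.58, adjusted P = 0.0074), where WT mouse 1 lay with the HSA-LR mice. The quadriceps value was -2.54 (adjusted P = 0.153) without WT mouse 2, -2.43 (adjusted P = 0.263) without WT mouse 3, -2.76 (adjusted P = 0.217) without HSA-LR mouse 1 and -2.46 (adjusted P = 0.323) without HSA-LR mouse 2. The gastrocnemius value was lost without any 1 of the WT mice, HSA-LR mouse 2 or HSA-LR mouse 3 (1.41 to 1.72, adjusted P = 0.127 to 0.211).

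In Tnni1, slow troponin I, bin 014 is a stretch of 4 coding bases (chr1:135803282-135803285, plus strand). It held 1, 440 and 118 counts in WT, 26, 2 and 1 in HSA-LR and 2473, 198 and 20 in Pip6a-PMO gastrocnemius. It rose with treatment by 5.08 (SE 1.05, adjusted P = 0.0029) on the log2 scale, a call that was lost without Pip6a-PMO mouse 1 (3.18, adjusted P = 0.147) and without HSA-LR mouse 2 or 3 (4.79, adjusted P = 0.130, and 4.55, adjusted P = 0.211).

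At the level of whole genes, the fast subunits dominated both muscles. Per kb of bin length, Tnnt3 stood highest in every group, followed by Tnnc2 and Tnni2. In the WT gastrocnemius their levels were 25074 ± 3075, 11258 ± 608 and 7727 ± 986 CPM per kb (SD, n = 3), and the slow subunits followed with Tnnt1 at 390 ± 147, Tnnc1 at 229 ± 76.2 and Tnni1 at 58.6 ± 23.1, before Tnnt2 at 0.753 ± 0.120. The order of the means was the same in the other 5 groups. The ranges of Tnnt1 and Tnnc1 overlapped in all 6 groups, those of Tnnc1 and Tnni1 in each quadriceps group and in the Pip6a-PMO gastrocnemius, and those of Tnnc2 and Tnni2 in the Pip6a-PMO gastrocnemius. With the largest bin of each gene in place of the sum, the order held except that Tnnt2 (3.17 CPM per kb) lay above Tnni1 (2.56) in the HSA-LR quadriceps.

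The 3 fast genes fell in the quadriceps of HSA-LR mice. Tnnt3 (chr7:142498836-142516009) stood at 43657, 41161 and 34259 CPM in WT, 30481, 31553 and 31232 in HSA-LR and 36133, 43617 and 52630 in Pip6a-PMO gastrocnemius. In the quadriceps it stood at 36940, 39806 and 36810 in WT, 25512, 25636 and 25863 in HSA-LR and 37689, 34386 and 40862 in Pip6a-PMO mice. HSA-LR mice were below all other mice in each muscle. In the quadriceps Tnnt3 fell by 0.68 on the log2 scale against WT (SE 0.13, adjusted P = 0.0095) and rose by 0.71 with treatment (SE 0.13, adjusted P = 0.016), and both calls held in all 18 settings. In the gastrocnemius the difference from WT was not called (-0.43, SE 0.19, adjusted P = 0.192), and the rise with treatment was 0.68 (SE 0.19, adjusted P = 0.073). Without Pip6a-PMO mouse 3, which changes the estimate of the spread, the difference from WT was called (-0.42, adjusted P = 0.0941).

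Tnni2, fast troponin I (chr7:142441808-142444410, plus strand), was also lowest in HSA-LR mice. It stood at 11146, 11717 and 11299 CPM in WT, 9386, 9000 and 9656 in HSA-LR and 11262, 10971 and 12026 in Pip6a-PMO quadriceps, so that HSA-LR mice lay below the others. It fell by 0.40 (SE 0.11, adjusted P = 0.044) in the HSA-LR quadriceps and rose by 0.45 (SE 0.11, adjusted P = 0.047) with treatment. The fall was lost without WT mouse 2 (adjusted P = 0.116), HSA-LR mouse 1 (adjusted P = 0.122) or HSA-LR mouse 2 (adjusted P = 0.116), and the rise without HSA-LR mouse 1 or 2 or Pip6a-PMO mouse 1 or 3 (adjusted P = 0.101 to 0.150). In the gastrocnemius Tnni2 stood at 10082 to 13033 CPM in WT, 9644 to 9846 in HSA-LR and 11622 to 16649 in Pip6a-PMO mice, with -0.33 (adjusted P = 0.294) against WT and a rise of 0.70 (SE 0.18, adjusted P = 0.058) with treatment.

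The rises of Tnni2 and Tnnt3 in the treated gastrocnemius were the least settled of these calls. Both were lost without any 1 of the 3 HSA-LR mice or Pip6a-PMO mouse 2 or 3 (adjusted P = 0.102 to 0.214, log2 changes of 0.48 to 0.72), and Tnnt3 also without WT mouse 2 (adjusted P = 0.115). With the replicate number as a block they were lost too (adjusted P = 0.136 for Tnni2 and 0.168 for Tnnt3), although the numbers did not pair mice of different groups. The highest values in this group came from Pip6a-PMO mouse 3, the library with the 5′ to 3′ ratio of -1.64. Without it the rise was 0.50 (adjusted P = 0.102) for Tnni2 and 0.48 (adjusted P = 0.133) for Tnnt3, and its part in the result was not tested further.

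Tnnc2, fast troponin C (chr2:164777161-164779967, minus strand), fell in the HSA-LR quadriceps by 0.53 (SE 0.13, adjusted P = 0.025), from 8845, 8640 and 9334 CPM in WT to 6973, 6404 and 6736, a call that held in all 18 settings. Treated quadriceps stood at 7685, 6756 and 8505 CPM so that they lay below all WT mice and overlapped with HSA-LR mice, and the change with treatment was not called (0.35, adjusted P = 0.123). In the gastrocnemius Tnnc2 ran from 8632 to 9556 CPM in WT, from 6804 to 7233 in HSA-LR and from 7430 to 11209 in Pip6a-PMO mice, with -0.45 (SE 0.18, adjusted P = 0.149) against WT and 0.56 (adjusted P = 0.102) with treatment, neither called. The first was called without Pip6a-PMO mouse 1 (-0.46, adjusted P = 0.0684) or mouse 3 (-0.44, adjusted P = 0.0364), and the second without Pip6a-PMO mouse 1 (0.73, adjusted P = 0.0329). In the quadriceps the change with treatment was called without HSA-LR mouse 3 (0.41, adjusted P = 0.0945) or Pip6a-PMO mouse 2 (0.46, adjusted P = 0.0916) and with the replicate number as a block (0.35, adjusted P = 0.0958).

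The slow genes separated the muscles and varied widely between mice. Tnnt1 stood at 510, 922 and 1147 CPM in the WT gastrocnemius and at 21.2, 20.4 and 93.7 in the WT quadriceps. Tnni1 (chr1:135779434-135810989, plus strand) stood at 125, 218 and 291 against 4.28, 5.78 and 31.5, and Tnnc1 (chr14:31208312-31211729, plus strand) at 151, 257 and 307 against 3.12, 4.11 and 21.9. None of the 3 slow genes in the WT quadriceps reached the lowest WT gastrocnemius, and WT mouse 3 was highest in both muscles for all 3 genes. In bulk muscle, fewer slow fibers and less RNA per fiber cannot be told apart.

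The differences of the quadriceps from the gastrocnemius in WT mice were -4.24 for Tnnt1 (SE 1.03, adjusted P = 0.124), -3.92 for Tnni1 (adjusted P = 0.126) and -4.61 for Tnnc1 (adjusted P = 0.124) in edgeR's quasi-likelihood test. Thus 0 of 7 troponin genes were called (0.297% of all genes). Of the 7, 4 had an unadjusted P under 0.05, against 1437 of 16167 genes in all. The muscles did not overlap for 4 of 7 (13.3% of all genes). Both muscles came from the same mice, and with the mouse as a block all 3 slow genes were called, at -4.55 (adjusted P = 0.043), -4.41 (adjusted P = 0.026) and -5.10 (adjusted P = 0.038). They were also called without Pip6a-PMO mouse 3 (-4.24, -3.91 and -4.60, adjusted P = 0.0516, 0.0516 and 0.0419). The fast genes differed between the muscles by -0.05 to 0.00 and Tnnt2 by -0.59 (adjusted P = 0.430), with no call. By length, Tnnt1 made up 1.59% ± 0.758 (SD, n = 3) of Tnnt1, Tnnt2 and Tnnt3 in the WT gastrocnemius and 0.0868% ± 0.0829 in the WT quadriceps. Tnni1 made up 0.786% and 0.0508% of Tnni1 and Tnni2, and Tnnc1 2.02% and 0.0811% of Tnnc1 and Tnnc2.

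Between HSA-LR and WT mice no slow troponin gene was called in either muscle. In the HSA-LR gastrocnemius Tnnt1 stood at 828, 391 and 648 CPM and overlapped with WT mice, and the log2 changes were -0.54 for Tnnt1, -0.64 for Tnni1 and -0.54 for Tnnc1 (adjusted P = 0.516 to 0.635). In the HSA-LR quadriceps Tnnt1 stood at 17.6, 5.97 and 3.81 CPM, below all WT mice, with a change of -2.44 (SE 1.07, adjusted P = 0.172), Tnnc1 changed by -2.24 (adjusted P = 0.257) and Tnni1 by -1.57 (adjusted P = 0.353). Treated mice had the widest spread. In the Pip6a-PMO quadriceps Tnnt1 stood at 130, 305 and 11 CPM, Tnni1 at 31.2, 74.5 and 3.47 and Tnnc1 at 35.3, 85.2 and 1.84, and mouse 3 lay within the HSA-LR range for Tnnt1 and Tnnc1 and just below it for Tnni1. The highest mouse exceeded the lowest 27.8-fold for Tnnt1, 21.5-fold for Tnni1 and 46.2-fold for Tnnc1, against at most 1.51-fold for any fast gene in any group.

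Against HSA-LR mice, Tnnt1 and Tnnc1 were called higher in the treated quadriceps, by 4.17 (SE 1.15, adjusted P = 0.063) and 4.32 (SE 1.28, adjusted P = 0.076), and Tnni1 was not called (2.97, adjusted P = 0.118) except without WT mouse 3 (adjusted P = 0.0770), Pip6a-PMO mouse 3 (3.49, adjusted P = 0.0621) and in 3 settings that kept all mice (adjusted P = 0.0456 to 0.0968). The calls of Tnnt1 and Tnnc1 were lost without any 1 of the HSA-LR mice (adjusted P = 0.113 to 0.214) and without Pip6a-PMO mouse 1 (4.25, adjusted P = 0.128, and 4.40, adjusted P = 0.149) or mouse 2 (3.12, adjusted P = 0.167, and 3.20, adjusted P = 0.196), and with the replicate number as a block (adjusted P = 0.126 and 0.148). With the slow fiber genes described next as a covariate, the rises of Tnnt1 and Tnnc1 were smaller and still called, at 1.74 (adjusted P = 0.0036) and 1.34 (adjusted P = 0.0347). In the gastrocnemius, Pip6a-PMO mouse 1 stood at 2889 CPM for Tnnt1, 715 for Tnni1 and 797 for Tnnc1, above all other libraries, while mice 2 and 3 stood at 549 and 559, 191 and 129, and 164 and 147, and no slow gene was called with treatment (1.21 to 1.40, adjusted P = 0.179 to 0.275).

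Other slow fiber genes, taken as a sum, ordered the mice as Tnnt1 did in both WT muscles, the HSA-LR gastrocnemius and the Pip6a-PMO quadriceps. The orders differed in the HSA-LR quadriceps and, for mice 2 and 3, in the Pip6a-PMO gastrocnemius. Summed CPM of 12 slow fiber genes without troponins, among them Myh7, the slow myosin heavy chain, was 14872 in Pip6a-PMO gastrocnemius mouse 1 and 3756 and 2774 in mice 2 and 3, and 2137, 3799 and 708 in the Pip6a-PMO quadriceps. WT libraries had 3214, 5563 and 8850 in the gastrocnemius and 879, 789 and 1866 in the quadriceps, and HSA-LR libraries 8691, 5019 and 8062, and 3141, 2779 and 4061. In the HSA-LR quadriceps this sum lay above every WT quadriceps and was highest in mouse 3, whereas Tnnt1 lay below every WT mouse and was lowest in mouse 3. The mean log2 CPM of the same genes, which weighs each gene alike, was 5.0, 4.14 and 3.71 there and 4.10, 4.28 and 5.33 in the WT quadriceps. In the Pip6a-PMO quadriceps it was 6.03, 6.71 and 3.57. With treatment 6 of the 12 genes were called higher and 2 lower in the quadriceps (median log2 change 1.75, 6.54% and 7.22% of all genes). In the gastrocnemius 0 were called higher and 2 lower (median 1.01, 4.49% and 5.53% of all genes). No gene of the list was at 0 in any library. With the mean log2 CPM of the list as a covariate, Tnnt1, Tnni1 and Tnnc1 were called lower in the HSA-LR gastrocnemius (-0.81, -0.87 and -0.82, adjusted P = 0.022, 0.0011 and 0.0201) and higher with treatment (1.11, 1.30 and 1.10, adjusted P = 0.0102, 6.4e-04 and 0.0102). In the quadriceps, Tnnt1 and Tnnc1 were then called lower in HSA-LR than in WT mice (-1.91 and -1.43, adjusted P = 4.7e-04 and 0.0086), and Tnni1 was not (-0.71, adjusted P = 0.215, and 0.56 with treatment, adjusted P = 0.398). The list contains Sln and Fhl1, which themselves rose in HSA-LR muscle. It also contains Myh7 and Myl2, whose patterns over the libraries lay close to those of Tnnt1 and Tnnc1. Since genes of the list changed with genotype and treatment, calls with this covariate cannot show a change of troponin apart from the list.

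Tnnt2, the cardiac and immature troponin T, was scarce. It stood at 4.85, 6.70 and 5.96 CPM in WT, 7.69, 7.43 and 8.89 in HSA-LR and 9.66, 4.75 and 6.90 in Pip6a-PMO gastrocnemius, and between 2.23 and 4.40 CPM in all 9 quadriceps libraries. HSA-LR gastrocnemius lay above WT without overlap, but the change of 0.38 was not called (adjusted P = 0.317), and it was -0.37 in the quadriceps (adjusted P = 0.313). The test of the difference between muscles in the HSA-LR response called 0 of 7 troponin genes and 0 of 16167 genes in all, with 1 troponin gene and 710 genes at an unadjusted P under 0.05. Summed CPM of 9 cardiac muscle markers ran from 34.6 to 253 in the gastrocnemius and from 9.70 to 42.5 in the quadriceps, with at most 4 of the 9 at 0 in a library.

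In counts of genes, 0 of 7 troponin genes were called between HSA-LR and WT gastrocnemius (15.5% of all genes). There 2 of 7 had an unadjusted P under 0.05, as had 3915 of 15625 genes in all. In the quadriceps 3 of 7 were called between HSA-LR and WT mice, all lower (20.3% of all genes, 9.31% lower). With treatment 2 of 7 were called in the gastrocnemius (10%) and 4 of 7 in the quadriceps (13.8%), all higher (4.49% and 6.54%). Between treated and WT mice 0 of 7 were called in either muscle (1.04% and 1.41% of all genes), with 0 at an unadjusted P under 0.05. Of all genes, 1641 of 15625 in the gastrocnemius and 1947 of 15574 in the quadriceps had such a P. In the treated quadriceps the estimates against WT were 1.73 for Tnnt1 (SE 1.04), 1.40 for Tnni1 (SE 0.98) and 2.08 for Tnnc1 (SE 1.15). At these SEs, the absence of a call does not show a return to the WT level. Groups did not overlap for 4 of 7 genes between HSA-LR and WT gastrocnemius (36.9% of all genes) and for 4 of 7 in the quadriceps (35.3%), and between treated and HSA-LR mice for 3 in the gastrocnemius (33.6%) and 2 in the quadriceps (35.5%). Between treated and WT mice they did not overlap for 0 genes in the gastrocnemius (15.7%) and for 1, Tnnc2, in the quadriceps (18.9%).

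**Figure D5:**
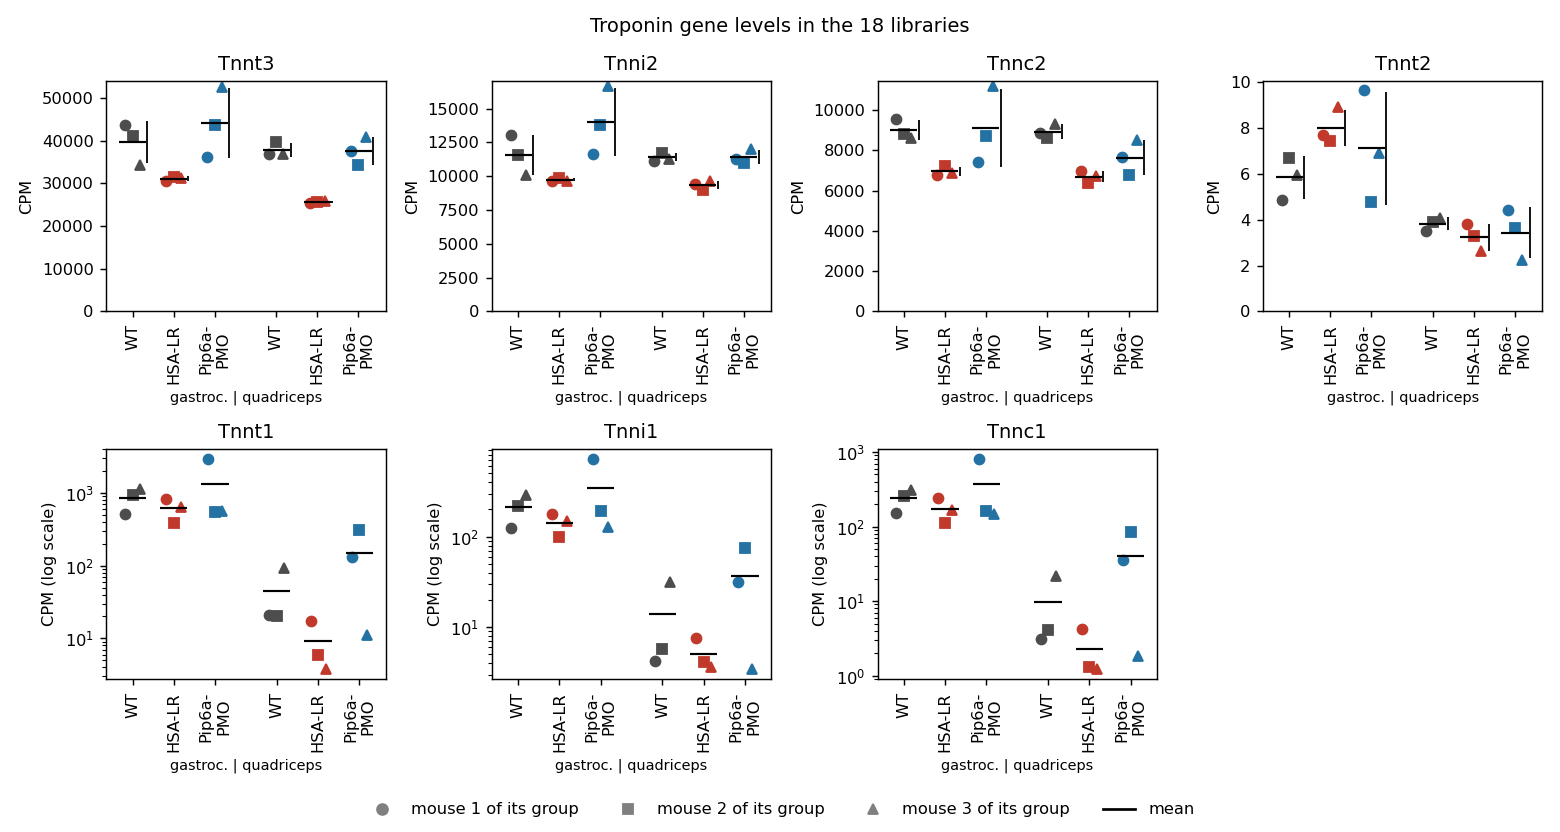
CPM of the 7 troponin genes in each mouse by group and muscle; Tnnt3, Tnni2, Tnnc2 and Tnnt2 are on linear axes from 0 with vertical lines of 1 SD either way (n = 3), Tnnt1, Tnni1 and Tnnc1 on log axes, and horizontal lines are means. Tnnt3 reaches at most 31553 CPM in the 6 HSA-LR libraries and at least 34259 in the other 12.

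Other thin filament genes gave a mixed picture. Of 17 genes, which include actins, tropomyosins, nebulin and capping proteins, 3 rose and 2 fell in the HSA-LR gastrocnemius (median log2 change 0.04, against -0.01 over all genes) and 6 rose and 4 fell in the quadriceps (0.10 against 0.01). Of all genes, 8.6% rose and 6.94% fell in the gastrocnemius and 11% rose and 9.31% fell in the quadriceps. Actc1, cardiac actin, fell by 4.19 (adjusted P = 0.011) in the gastrocnemius and by 3.38 (adjusted P = 0.0037) in the quadriceps. Klhl41, which protects nebulin and thin filaments from degradation, rose by 0.97 (adjusted P = 0.0015) in the quadriceps, and Cfl2, a muscle cofilin, by 0.51 (adjusted P = 0.030) in the gastrocnemius. With treatment 1 of the 17 rose and 2 fell in each muscle, Klhl41 among those that fell (-0.78 and -0.74, adjusted P = 0.058 and 0.012), where 4.49% and 6.54% of all genes rose and 5.53% and 7.22% fell. Troponin genes called in the HSA-LR quadriceps, all of them fast genes, were all lower, whereas the wider list changed in both directions. Of 12 fast fiber genes without troponins, 0 rose and 2 fell in the HSA-LR quadriceps (median log2 change -0.26). In the HSA-LR gastrocnemius 1 rose and 1 fell (median -0.24). With treatment 4 rose and 1 fell in the gastrocnemius (median 0.39), and 1 rose and 0 fell in the quadriceps (median 0.26).

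Genes of embryonic or regenerating muscle were read beside the fetal exon. Of 12, 4 rose and 0 fell in the HSA-LR gastrocnemius and 6 rose and 1 fell in the quadriceps, with median log2 changes of 0.35 and 0.84, against -0.01 and 0.01 over all genes, of which 8.6% and 11% rose and 6.94% and 9.31% fell. Chrna1, the acetylcholine receptor alpha subunit, rose by 1.49 (adjusted P = 0.0057) in the gastrocnemius, and Myh8, the perinatal myosin heavy chain, by 1.21 (adjusted P = 3.3e-04) in the quadriceps. Summed CPM of the 12 was 134 to 147 in the HSA-LR gastrocnemius against 64.5 to 107 in WT and 75.0 to 107 in Pip6a-PMO mice, and 118 to 122 in the HSA-LR quadriceps against 57.9 to 75.1 and 85.0 to 96.3. With treatment 0 rose and 2 fell in each muscle, with medians of -0.32 and 0.07. Of all genes, 4.49% and 6.54% rose and 5.53% and 7.22% fell. Between treated and WT mice, 0 were called in the gastrocnemius (median 0.24, 1.04% of all genes called). In the quadriceps 2 were higher and 0 lower (median 0.70, 1.41% of all genes called). Summed CPM of 7 macrophage genes was 61.8 to 70.0, 44.9 to 60.8 and 35.0 to 49.1 in the gastrocnemius of HSA-LR, WT and Pip6a-PMO mice, and 73.0 to 92.0, 30.2 to 49.8 and 29.3 to 46.5 in the quadriceps. Their part in the share of the fetal exon was not tested.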

How the data were processed

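PolyA RNA of gastrocnemius and quadriceps was sequenced by the authors as stranded TruSeq libraries, and the deposited values are raw counts per exon bin on GRCm38. The submitters' processing notes name CASAVA, HISAT and featureCounts 1.5.0, with no roles given. Entries naming no gene, 2.82 to 4.14% of counts, were left out. Here bin counts were summed per gene, kept by filterByExpr (minimum count 10, minimum total 15), scaled by TMM and tested per muscle over 3 groups of 3 (over all 6 groups for comparisons between muscles) with edgeR 4.0.16 (R 4.3.3), by the quasi-likelihood test for genes and diffSpliceDGE for bins, and called at an adjusted P under 0.1. If a read pair counts in each bin it overlaps, as was assumed here, gene sums weigh short bins. P-values measure the spread between these mice, and counting error alone is smaller. Both scripts were tested on simulated data with 100 changes of 1 and 100 of 2 on the log2 scale. For genes, 93 and 100 of these were called, with 24 false calls among 15441 genes. For bins, 64 and 96 were called, with 255 false calls among 32307 bins. Only 49 of the false bin calls lay in genes without a changed bin.

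The 2 muscles of a mouse deviated together (median r 0.213, 0.067 to 0.511, 7 of 9 pairs over 0.1), whereas equal numbers in different groups did not (median r 0.001, 5 of 18 over 0.1), so mouse was a block only between muscles, as an alternative. Named were all members, bins 018 and 019, each troponin bin called within a muscle, alternative coding bins of troponin T genes, at most 2 called genes per list and comparison, and the 3 genes or bins most like a member (root mean square of log2 differences, pseudocounts 0.1 CPM and 0.5 counts). Bins 008, 012, 022 and 023 of Tnnt3 were added as context after their values were seen. Members and lists were chosen with earlier results of these data known. DESeq2 1.42.0, limma 3.58.1, other filters, scalings, denominators and covariates, and each mouse left out were alternatives.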

Additional observations from a re-analysis of the deposited data

Results flagged for a closer look

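The difference between muscles in the response of Tnnc2 bin 007, 100 noncoding or untranslated bases at the 5′ end of fast troponin C, was the single member value past a test of the difference itself. The log2 change in HSA-LR against WT mice was 4.40 lower in the quadriceps than in the gastrocnemius (-4.40, SE 0.72, adjusted P = 4.5e-04, diffSpliceDGE with an interaction term), against 0.0166% of all bins called. The bin held 21, 337 and 379 counts in the WT quadriceps and 11 to 17 in the WT gastrocnemius. The call was lost without WT mouse 2 (-3.95, adjusted P = 0.133) or WT mouse 3 (-4.14, adjusted P = 0.101), the mice with the high counts, and both are mice whose Y-linked genes went against their labels.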

How the results depend on the processing

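Results below were recomputed under each alternative. Of the troponin gene changes, 802 kept direction and side of the threshold, 41 gained and 32 lost a call and 21 turned, and of the bin changes 691, 0, 117 and 3. Genes called in the gastrocnemius numbered 2 with the 2 groups alone, 2 by DESeq2 and 5 with the slow fiber covariate for HSA-LR against WT, 0 with the replicate block and 6 with that covariate for treatment, and 1 with it against WT. In the quadriceps the covariate gave 5 for HSA-LR against WT. Between WT muscles 3 were called with mouse as a replicate block. Bins called by limma voom numbered 5, 5, 19 and 11 for HSA-LR against WT and treatment in the gastrocnemius and then in the quadriceps. With the 5′ to 3′ covariate, treatment called 5 and 3 bins and treated against WT 1 and 1, and with coding bins alone 7 were called for HSA-LR against WT in the gastrocnemius and 2 for treated against WT in the quadriceps. Leaving out each mouse, genes called ranged from 0 to 2, 0 to 3 and 0 to 0 in the gastrocnemius, 2 to 4, 1 to 5 and 0 to 0 in the quadriceps (HSA-LR against WT, treatment, treated against WT), 0 to 3 between WT muscles and 0 to 0 for the interaction. Bins ranged from 6 (without WT mouse 1) to 12, 6 (without HSA-LR mouse 3) to 10 and 0 to 1, then 8 to 10, 2 (without each Pip6a-PMO mouse) to 6 and 3 to 4, 1 to 2 and 0 to 1. Turned signs were all of values not called except for Tnnt3 bin 006, and their values with each mouse left out follow as ranges. For treatment Tnnt2 gave -0.25 to 0.19 in the gastrocnemius (0.08 without HSA-LR mouse 3), and with the slow fiber covariate 0.010 there and -0.058 in the quadriceps. For treated against WT gastrocnemius Tnnc1 gave -0.49 to 1.03, Tnni1 -0.28 to 1.13, Tnnt1 -0.51 to 1.03 (lowest without Pip6a-PMO mouse 1) and Tnnc2 -0.10 (without Pip6a-PMO mouse 3) to 0.27. In the quadriceps Tnni2 gave -0.035 to 0.088, Tnnt2 -0.35 to 0.072 and Tnnt3 -0.071 to 0.11, turning without Pip6a-PMO mouse 3, and with the slow fiber covariate Tnnc1, Tnni1 and Tnnt1 gave -0.085, -0.15 and -0.17. Between WT muscles Tnnc2 gave -0.057 to 0.076 (-0.02 without WT mouse 2, -0.0041 without Pip6a-PMO mouse 2), Tnni2 -0.091 to 0.12 and 0.00074 with mouse as a replicate block, Tnnt3 -0.13 to 0.058 and Tnnt3 bin 018 -0.20 to 0.14. The interaction of Tnni1 gave -1.31 to 0.22. Tnnt3 bin 006 in the gastrocnemius gave -1.07 to 2.96 for HSA-LR against WT and -2.84 to 0.051 for treatment, turning without HSA-LR mouse 2. The cause was not tested. Tnnt2 had 291 to 504 counts in the quadriceps, where 0 of its 13 alternative coding bins passed the filter.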

Other observations

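Genes and bins whose pattern over the 18 libraries lay closest to that of a member were listed by the root mean square of the log2 differences from their own means, among 15264 genes and 168299 bins. For Tnnt1 these were Myl2, a slow myosin light chain (0.385), Myh7, the slow myosin heavy chain (0.459), and Myh6 (0.509), where Tnnt1 itself varied by 2.86. For Tnnc1, which varied by 2.99, they were Myh7 (0.254), Myl2 (0.573) and Myh6 (0.715), and for Tnni1, which varied by 2.48, Gm34302 (0.578), Tpm3, the slow tropomyosin (0.594), and Myh6 (0.597). Tnnt2 varied by 0.574, and its nearest genes were Moxd1, Smoc2 and Cadm4 at 0.298 to 0.307. These distances are descriptions over libraries that share mice, with no test.

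The bins closest to bin 018 of the Tnnt3 fetal exon were bin 007 of Ldb3, a Z-disc protein (0.964), bin 033 of Coq8a, which serves coenzyme Q synthesis (0.969), and bin 007 of Kbtbd12 (1.11), where bin 018 varied by 2.75. Ldb3 bin 007 took a mean of 0.0921% of its gene's counts in the WT, 1.57% in the HSA-LR and 0.168% in the Pip6a-PMO gastrocnemius, and 0.0625%, 1.55% and 0.177% in the quadriceps. Kbtbd12 bin 007 (chr6:88613751-88613893) took 0.0226%, 0.693% and 0.0430%, and then 0.0120%, 0.642% and 0.0286%. The same 3 bins were nearest to bin 019, at 1.08 to 1.14.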
